A study of Mus musculus with 24 samples.

Results

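PLZF+ γδ T cells sorted from lung were compared with those sorted from spleen and inguinal lymph node. The contrast was the mean of 3 lung libraries minus the mean of the spleen group (3 libraries) and the lymph node group (3 libraries). All genes of the deposited table were members, with the 11 merged entries left out: 7914 of 7926 genes could be worked back to whole reads, and the 2578 with a mean of at least 10 normalized reads over the 9 libraries were tested. Every animal was a male C57Bl/6 mouse of 16 to 22 weeks that carried a PLZF-GFP reporter, and no treatment was given. PLZF- γδ T cells of the same 3 tissues (9 libraries) served for a test of whether a lung difference was larger in 1 subset. Cells were sorted into lysis buffer on a FACSAria Fusion and read by Smart-seq2, a full-length protocol for few cells. The labels name 3 libraries in each group, whereas the series text gives 2 replicates per subset pooled from 10 mice each. Whether the 3 came from separate pools is not stated, so p-values measure library-to-library spread that may be technical.

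γδ T cells are lymphocytes that recognise antigen through a receptor built from a γ and a δ chain. PLZF, encoded by Zbtb16, is a transcription factor of innate-like lymphocytes, and the γδ T cells that carry it include cells programmed in the thymus to release IL-17, a cytokine that draws neutrophils to barrier tissues. Such cells settle in lung as well as in lymphoid organs. Signals through the T cell receptor, cytokine receptors or stress act on immediate early transcription factors of the AP-1, EGR and NR4A families and on NF-kB, whose inhibitors are among its own targets.

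Relative to the lymphoid tissues, PLZF+ cells of lung had more Il17a, Il17f, Areg and Tnfsf11 RNA, and more RNA of immediate early genes and of NF-kB targets. They had less RNA of γ chain and CD3 genes, of Cd7 and Cd6, and of interferon-stimulated genes. Il17a, Il17f, Areg and Tnfsf11 had lymphoid means under 10 normalized reads and entered the test through lung alone. Their direction is a description. When libraries were scaled to their CD3 reads, 2 of 10 γδ T cell receptor and CD3 genes and 1 of 14 interferon-stimulated genes were lower. Over all 2578 genes tested, 67 were lower and 1240 higher on that scale. The CD3 genes among the 10 set the scale themselves, so their level was fixed by it. Ccr6, Itgae, Ptgdr2 and the scavenger receptor gene 5830411N06Rik were lower in lung than in lymph node and did not pass the test against spleen. Per CD3 read, Ccr6 in lung overlapped with both lymphoid tissues. Genes of alveolar macrophages and of other non-T cells were also higher in lung.

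Lung libraries 2 and 3 held 110721 and 115928 reads over the genes of the table, against 837855 in lung library 1, 364375 to 455832 in spleen and 313884 to 524173 in lymph node. A normalized read is a read divided by the relative depth of its library, so that 1 read was worth 3.20 and 3.04 normalized reads in lung libraries 2 and 3 and 0.466 in lung library 1. Lung libraries also correlated less with each other (Pearson 0.715 to 0.804 across genes) than those of spleen (0.904 to 0.928) or lymph node (0.875 to 0.951). The sorted cells' defining genes were read in all 9 libraries: each of Cd3d, Cd3e, Cd3g and Cd247 had at least 131 normalized reads, and Tcrg-C2 at least 112. Zbtb16 and Trdc were not analysed here, since the table holds only genes with q under 0.05 in the authors' own test by tissue. Genes of 10 lists for other cell types (170 of 287 listed genes in the table) took 11.1% to 16.5% of reads in lung, 4.75% to 6.91% in spleen and 1.33% to 3.66% in lymph node. Alveolar macrophage genes made up 5.84% to 9.60% in lung and at most 1.25% in the lymphoid libraries, and none of the 30 in the table was at 0 in all 3 lung libraries. This list also took 1.88% to 3.35% in PLZF+ adipose libraries, so it is not specific to lung. Some genes, such as Krt19, are on more than 1 list, so the shares of single lists overlap. The 95% Wilson intervals of these shares, which cover counting error only, were at most 0.437 percentage points wide. CD3 genes made up 0.371% to 0.587% in lung and 0.988% to 1.66% in the lymphoid libraries. In bulk RNA, fewer cells of a type and less RNA per cell cannot be told apart. The part of the other cells' RNA in the results below was not tested. Results were also computed with libraries scaled to the 4 CD3 genes and without both shallow lung libraries. The latter leaves 1 lung library, assumed to vary like the libraries of the other groups.

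**Figure D1:**
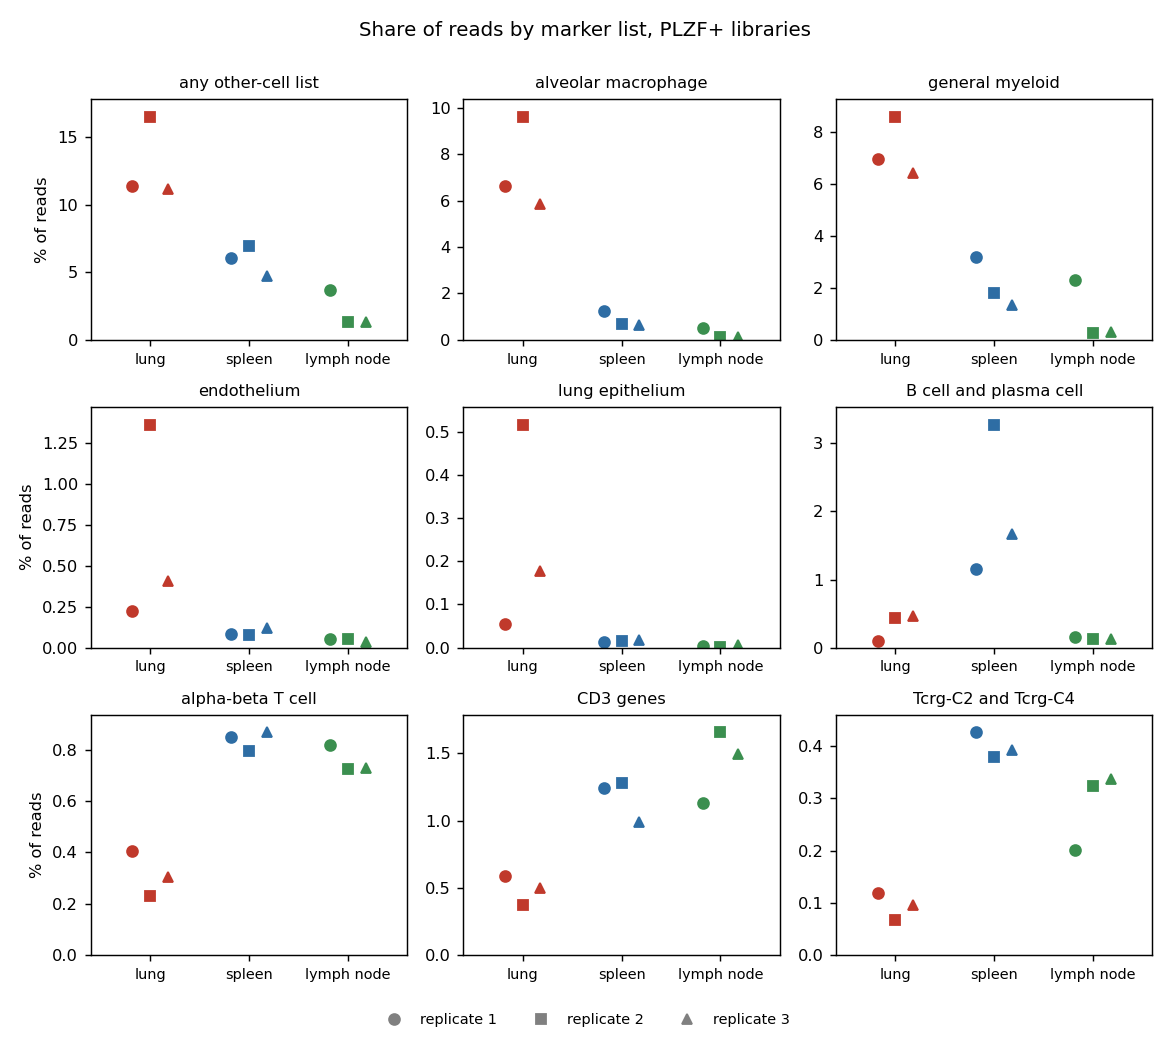
Share of each library's reads (%, y axis) taken by marker lists in PLZF+ cells of lung, spleen and lymph node; points are libraries and shapes the replicate number. The 3 lung libraries lay above all lymphoid libraries for alveolar macrophage genes (5.84% to 9.60%) and below them for CD3 genes (0.371% to 0.587%).

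Of the 2578 genes tested, 1601 (62.1%) passed limma with Benjamini-Hochberg adjusted p under 0.05, 887 of them higher in lung (34.4%) and 714 lower (27.7%). The counts of list members below are to be read against these high shares, which start from a table of genes picked by a test for tissue differences. Counts with CD3 scaling or without both shallow lung libraries are to be read against that setting's counts over all genes, given below. Against spleen alone 914 genes passed (35.5%; 22.0% higher and 13.4% lower), and against lymph node alone 1475 (57.2%; 33.4% of genes higher and 23.8% lower in lung), so that lung stood farther from lymph node by count. In 669 genes (26.0%) every lung library lay above all 6 lymphoid libraries, and in 417 (16.2%) every one lay below. The direction of calls depended on scaling: 676 genes were higher and 1159 lower after quantile scaling, and 1240 and 67 when libraries were scaled to their CD3 reads, which moved the median of all genes from -0.02 to 0.85 on the log2 scale. Limma voom, a different model, gave 880 higher and 303 lower. The deposited log2 values, with another set of genes tested, gave 1394 and 587. Without both shallow lung libraries 634 genes passed, 508 higher and 126 lower. Of the 887 higher genes, 289 had a lymphoid mean under 10 normalized reads and reached the filter through lung alone, and 89 of the 714 lower genes had a lung mean under 10. Such a gene had to differ, so its direction and its part in a list's count are descriptions. Genes on no other-cell list gave 790 higher and 709 lower calls of 2446 tested, and genes on such a list 97 and 5 of 132.

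Il17a, which encodes the main effector cytokine of these cells, had a mean 49.4 times that of the lymphoid libraries. Its levels were 409, 230.4 and 362 normalized reads in lung, 2.83, 5.79 and 0 in spleen and 4.59, 11.7 and 15.6 in lymph node. All lung libraries lay above all lymphoid ones (log2 difference 5.86 ± 0.60 SE, adjusted p = 1.89e-05). Il17f, its close relative, stood at 74.1, 76.8 and 57.8 in lung, 2.12, 4.05 and 1.23 in spleen and 0, 9.39 and 8.71 in lymph node, again without overlap. Il17f differed by 4.16 ± 0.75 SE on the log2 scale (adjusted p = 0.00104). Lymph node library 1 had no read of Il17f, and 1 spleen library none of Il17a. Per 100 CD3 reads, Il17a came to 17.8, 17.5 and 20.5 in lung, 0.0880, 0.172 and 0 in spleen and 0.152, 0.288 and 0.370 in lymph node, so that lung remained apart from the lymphoid tissues on that scale (log2 difference 6.77 ± 0.55, adjusted p = 2.29e-06). Both genes had lymphoid means under 10 and reached the filter through lung alone. Of the IL-17 list, 5 of 24 genes were in the table; 2 rose (Il17a and Il17f), 2 fell (Ccr6 and 5830411N06Rik) and Il17rc did not pass the test, with a median of -0.57 that turned to 0.29 when scaled to CD3 reads, beside -0.02 over all genes. With that scaling both decreases did not pass.

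The Il17a promoter region is shown because the gene had the largest increase among T cell cytokines, and that of Areg because it encodes a second secreted factor that was near 0 in all lymphoid libraries. Both are RefSeq sequences (GRCm38.p6) of 300 bases, from 250 before to 50 after the start of the gene, written 5′ to 3′ on the gene's strand. Il17a lies at chr1:20730655-20730954 on the plus strand and Areg at chr5:91139349-91139648 on the plus strand; capitals mark an AP-1 motif (TGANTCA) 244 bases upstream in Il17a and a cAMP response element (TGACGTCA) 61 bases upstream in Areg.
Il17a: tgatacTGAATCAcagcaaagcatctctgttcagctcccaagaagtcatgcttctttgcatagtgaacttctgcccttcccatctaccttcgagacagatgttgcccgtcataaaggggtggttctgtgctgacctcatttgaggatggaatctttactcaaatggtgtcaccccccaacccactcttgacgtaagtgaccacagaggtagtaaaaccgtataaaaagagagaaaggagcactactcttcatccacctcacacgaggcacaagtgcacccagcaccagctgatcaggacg
Areg: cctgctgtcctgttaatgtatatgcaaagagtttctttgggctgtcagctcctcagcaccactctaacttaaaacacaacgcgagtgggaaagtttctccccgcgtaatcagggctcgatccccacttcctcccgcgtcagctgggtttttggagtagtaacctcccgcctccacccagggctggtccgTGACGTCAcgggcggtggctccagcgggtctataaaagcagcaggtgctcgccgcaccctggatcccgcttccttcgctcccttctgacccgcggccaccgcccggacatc
Searched on both strands, TGANTCA occurred in 7.81% and TGACGTCA in 1.79% of the 32851 promoter regions of this length. A match is a description of letters only.

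Other secreted factors followed the same direction. Areg, encoding amphiregulin, a growth factor for epithelium, had 95.6, 57.6 and 73.0 normalized reads in lung, 0.707, 0 and 0.616 in spleen and 2.04, 0 and 0 in lymph node, and no lymphoid library reached 3. Areg differed by 5.71 ± 0.66 SE on the log2 scale (adjusted p = 4.64e-05). Tnfsf11, which encodes RANKL, had 115, 60.8 and 161 in lung, 16.3, 6.37 and 3.70 in spleen and 14.3, 9.39 and 3.73 in lymph node, with lung above every lymphoid library. Tnfsf11 differed by 3.59 ± 0.55 SE on the log2 scale (adjusted p = 3.86e-04). Osm, encoding the cytokine oncostatin M, rose likewise (log2 difference 2.96 ± 0.30 SE, adjusted p = 1.89e-05), with 155 to 349 normalized reads in lung and 20.4 to 43.4 in the lymphoid libraries. Of the list of cytokines and tissue factors, 16 of 37 genes were tested; 12 rose, Ltb fell and Lta, Lif and Hbegf did not pass, with a median of 3.74. Of the 12, 9 reached the filter through lung alone, Areg among them. Tnfsf11 also had a lymphoid mean under 10. Several of the 12 are also products of macrophages and neutrophils: Il1b (log2 difference 6.66 ± 0.63 SE, adjusted p = 1.21e-05) and Cxcl2 (log2 difference 6.93 ± 0.53 SE, adjusted p = 3.12e-06) were among the 12 largest increases that the rule of size below names outside the other-cell lists. General myeloid genes took 6.42% to 8.56% of reads in lung, 1.33% to 3.17% in spleen and 0.270% to 2.31% in lymph node, and their part in these increases was not tested. Ltb, which encodes lymphotoxin β, a signal for lymphoid organ structure, had 656, 285 and 566 in lung, 1016, 1089 and 639 in spleen and 1278, 1394 and 1477 in lymph node and overlapped with spleen (log2 difference -1.23 ± 0.28 SE, adjusted p = 0.00417); it did not pass without both shallow lung libraries or when scaled to CD3 reads.

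Of the receptors for position in tissue, 4 were lower in lung than in lymph node and did not pass the test against spleen. Ccr6, a chemokine receptor typical of IL-17-producing γδ T cells, had 177, 221 and 268 in lung, 187, 315 and 192 in spleen and 636, 675 and 842 in lymph node. Lung and spleen overlapped, and lymph node lay above both (lung minus spleen -0.04 ± 0.26, adjusted p = 0.905; lung minus lymph node -1.70 ± 0.26, adjusted p = 3.48e-04). Itgae, which encodes the αE integrin that binds E-cadherin, had 186, 141 and 195 in lung, 130.1, 335 and 266 in spleen and 899.9, 1231 and 1265 in lymph node and the same order (lung minus spleen -0.39 ± 0.32, adjusted p = 0.307; lung minus lymph node -2.69 ± 0.32, adjusted p = 6.67e-05). Ptgdr2, a receptor for prostaglandin D2, had 20.5, 12.8 and 18.2 in lung, 34.6, 49.8 and 17.2 in spleen and 292, 373 and 426 in lymph node, with lymph node again above all other libraries (lung minus spleen -0.84 ± 0.39, adjusted p = 0.0928; lung minus lymph node -4.33 ± 0.39, adjusted p = 7.98e-06). 5830411N06Rik, which encodes a scavenger receptor of IL-17-producing γδ T cells (SCART2), had 325, 352 and 456 in lung, 283, 467 and 545 in spleen and 1234, 1437 and 2685 in lymph node (lung minus spleen -0.16 ± 0.33, adjusted p = 0.69; lung minus lymph node -2.17 ± 0.33, adjusted p = 3.24e-04). The missed thresholds against spleen do not show that lung and spleen were alike: the difference of Ptgdr2 there had a standard error of 0.39. Ccr10, a receptor for skin and mucosal chemokines, was the member of the chemokine receptor list that fell most without overlap, with 32.6, 19.2 and 12.2 in lung, 48.8, 119 and 67.1 in spleen and 123, 244 and 214 in lymph node. Ccr10 differed by -2.50 ± 0.37 SE on the log2 scale (adjusted p = 3.09e-04).

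**Figure D2:**
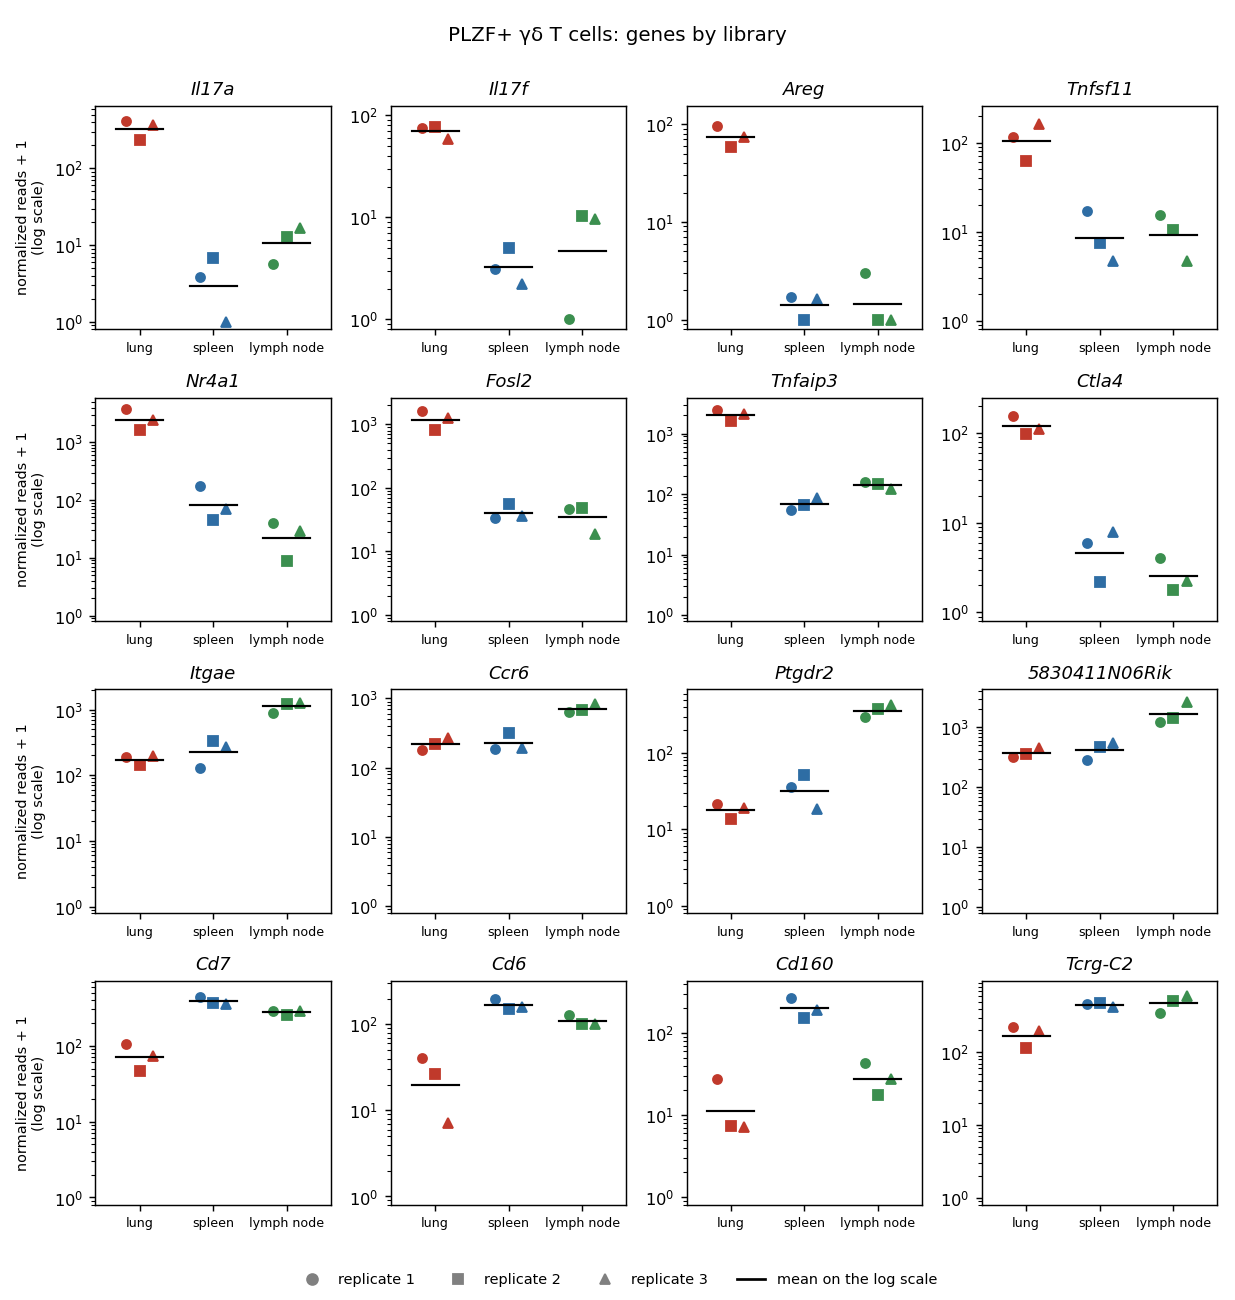
Normalized reads plus 1 (log scale, y axis) of 16 genes in each PLZF+ library of lung, spleen and lymph node; points are libraries, shapes the replicate number and bars the mean on the log scale. Il17a, Il17f, Areg, Tnfsf11, Nr4a1, Fosl2, Tnfaip3 and Ctla4 were higher in all 3 lung libraries, while Itgae, Ccr6, Ptgdr2 and 5830411N06Rik were highest in lymph node.

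Of 16 tested genes for chemokine and migration receptors, 6 rose, 5 fell and 5 did not pass, beside 34.4% higher and 27.7% lower calls over all genes. Scaled to CD3 reads the list gave 10 higher and 2 lower, beside 1240 and 67 of all 2578 genes tested. Without both shallow lung libraries its median was 0.11. Cxcr4, which holds leukocytes near stroma and marrow, rose (log2 difference 2.28 ± 0.47 SE, adjusted p = 0.00238), with 73.6 to 238 normalized reads in lung and 10.96 to 39.2 in the lymphoid libraries. P2ry10, a lysophospholipid receptor of lymphocytes, also rose without overlap (log2 difference 1.81 ± 0.25 SE, adjusted p = 1.68e-04), with 387 to 743 normalized reads in lung and 109 to 231 in the lymphoid libraries. Ccr9, a gut-homing receptor, went the other way: its levels of 21.4, 6.40 and 30.4 in lung, 121, 145 and 142 in spleen and 29.6, 10.96 and 23.0 in lymph node put lung near lymph node and below spleen (log2 difference -1.61 ± 0.47 SE, adjusted p = 0.0125), and the call was lost without lung library 2, without both shallow lung libraries, in the fit on all 24 libraries and with CD3 scaling (-0.76, adjusted p = 0.207). Ccr1 had 160.4, 202 and 274 in lung, 28.3, 45.2 and 25.9 in spleen and 8.16, 21.9 and 28.0 in lymph node (log2 difference 3.08 ± 0.38 SE, adjusted p = 8.85e-05); it is carried by myeloid cells as well as T cells. Of 7 tested genes of the naive and lymphoid homing list, 3 fell (Cd7, Ccr9 and Tcf7) and none rose, beside 27.7% lower calls over all genes; the median was -0.60, and 0.30 when scaled to CD3 reads. Tcf7, which encodes the transcription factor TCF-1, had 136, 112 and 143 in lung, 239.6, 291 and 270.4 in spleen and 202, 197 and 259.6 in lymph node, a log2 difference of -0.89 ± 0.19 that turned to 0.02 when scaled to CD3 reads. Cd7, a surface protein of T and NK cells, had 105, 44.8 and 73.0 in lung, 439.7, 367 and 355 in spleen and 285, 251 and 288 in lymph node, without overlap. Cd7 differed by -2.20 ± 0.25 SE on the log2 scale (adjusted p = 3.94e-05). Cd6, an adhesion receptor of T cells, had 40.1, 25.6 and 6.08 in lung, 197, 149 and 159.5 in spleen and 129, 101 and 100.2 in lymph node. Cd6 differed by -2.78 ± 0.44 SE on the log2 scale (adjusted p = 4.56e-04). Both decreases remained past the test under every alternative run.

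Of 17 tested genes of the tissue residency list, 12 rose and 2 fell (Itgae and Ccr10), with a median of 2.36; without both shallow lung libraries the counts were 10 and 2 of 16. Crem, which encodes a repressor of cAMP-driven transcription and is high in resident T cells, had 891, 307 and 471 in lung, 38.2, 41.1 and 26.5 in spleen and 42.3, 25.1 and 41.1 in lymph node and no overlap. Crem differed by 3.82 ± 0.33 SE on the log2 scale (adjusted p = 6.80e-06). Rgs1, a brake on chemokine receptor signalling, had 740.4, 608 and 876 in lung, 175, 98.4 and 60.4 in spleen and 224, 205 and 192 in lymph node. Rgs1 differed by 2.33 ± 0.29 SE on the log2 scale (adjusted p = 7.70e-05). Skil, a repressor of SMAD transcription factors, had 317, 307 and 410.5 in lung, 58.7, 51.5 and 62.8 in spleen and 101, 65.0 and 80.3 in lymph node. Skil differed by 2.31 ± 0.22 SE on the log2 scale (adjusted p = 1.07e-05). These 3 stood apart from both lymphoid tissues in all lung libraries. Of the 12 list members that rose, 2 reached the filter through lung alone. Vps37b, part of the endosomal sorting machinery, rose by 3.43 ± 0.32, and Bhlhe40, a transcription factor of cytokine-producing T cells, by 3.82 ± 0.41 (adjusted p = 9.77e-06 and 2.73e-05). Itga1, the α1 integrin of many resident T cells, gave 8.39, 92.8 and 36.5 in lung, 10.6, 6.37 and 5.54 in spleen and 18.4, 2.35 and 0.622 in lymph node: lung library 1 lay within the lymphoid range, and its call (log2 difference 2.36 ± 0.86 SE, adjusted p = 0.0321) was lost when any of lung library 2 or 3, lymph node library 2 or 3 or spleen library 2 or 3 was left out, and in 4 further alternatives. Runx3, a transcription factor of residency, did not pass (log2 difference -0.65 ± 0.28 SE, adjusted p = 0.0562).

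Immediate early genes formed the largest T cell list with a common direction: 30 of 38 genes were tested, 28 rose and none fell, with a median of 3.24 on the log2 scale. Without both shallow lung libraries 25 of 28 rose. Fos, a component of AP-1, had 2007, 2259.6 and 2009.8 normalized reads in lung, 86.2, 166 and 20.3 in spleen and 5.10, 0.783 and 3.73 in lymph node, the first of the 12 largest increases outside the other-cell lists. Fos differed by 7.04 ± 0.55 SE on the log2 scale (adjusted p = 3.32e-06). Its lymphoid values spread widely, from 0.783 to 166. Fosl2, an AP-1 component of IL-17-producing T cells, was tighter, at 1649, 823 and 1244 in lung, 32.5, 55.0 and 35.1 in spleen and 45.9, 47.0 and 18.1 in lymph node. Fosl2 differed by 4.98 ± 0.34 SE on the log2 scale (adjusted p = 1.71e-06). Nr4a1, a nuclear receptor gene switched on by T cell receptor signals, had 3733, 1632 and 2439 in lung, 177, 43.4 and 68.4 in spleen and 38.8, 7.83 and 28.0 in lymph node (log2 difference 5.87 ± 0.50 SE, adjusted p = 6.22e-06), and its relatives Nr4a2 and Nr4a3 rose by 5.15 ± 0.56 and 4.87 ± 0.66. In all of these genes lung and lymphoid libraries did not overlap. Btg2, an antiproliferative gene, had 2149, 1674 and 1998 in lung, 303, 319 and 246 in spleen and 321, 278 and 301 in lymph node. Btg2 differed by 2.71 ± 0.19 SE on the log2 scale (adjusted p = 1.71e-06). Dusp5, a phosphatase of ERK, had 459, 304 and 347 in lung, 41.0, 34.7 and 43.7 in spleen and 48.9, 38.4 and 41.7 in lymph node. Dusp5 differed by 3.11 ± 0.22 SE on the log2 scale (adjusted p = 2.22e-06). Egr1 and Egr2, zinc finger factors downstream of ERK, rose by 3.98 ± 0.39 and 4.96 ± 0.52. Batf and Arc did not pass (log2 difference -0.52 ± 0.35 SE, adjusted p = 0.203 and -1.49 ± 1.30, adjusted p = 0.312). Of the 28 genes, 7 had a lymphoid mean under 10 normalized reads. The part of macrophage RNA in these differences was not tested.

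Genes of cAMP signalling, the clock and glucocorticoid response gave 12 increases and 1 decrease (Ddit4) among 15 tested, with a median of 2.75. Of the 12, 2 reached the filter through lung alone, and Ddit4 reached it through the lymphoid tissues alone. Sik1, a kinase induced by cAMP, had 385, 269 and 304 in lung, 28.3, 24.3 and 12.3 in spleen and 28.0, 34.4 and 41.1 in lymph node. Sik1 differed by 3.53 ± 0.30 SE on the log2 scale (adjusted p = 5.91e-06). Per1, a clock gene that also answers to cAMP and glucocorticoid, had 606, 314 and 535 in lung, 51.6, 63.7 and 45.0 in spleen and 61.7, 67.3 and 67.2 in lymph node. Per1 differed by 2.97 ± 0.24 SE on the log2 scale (adjusted p = 4.58e-06). Nfil3, a transcription factor of the clock output, had 335, 154 and 237 in lung, 15.6, 25.5 and 25.9 in spleen and 34.7, 54.0 and 70.3 in lymph node. Nfil3 differed by 2.75 ± 0.33 SE on the log2 scale (adjusted p = 6.00e-05). All 3 were higher in every lung library than in any lymphoid one. Ddit4, an inhibitor of mTORC1, had 9.79, 0 and 9.12 in lung, 24.03, 13.9 and 25.9 in spleen and 15.3, 21.9 and 24.3 in lymph node; its decrease (log2 difference -2.16 ± 0.73 SE, adjusted p = 0.0237) was lost without lung library 2, without lymph node library 3, without both shallow lung libraries, with limma voom and with CD3 scaling.

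Among NF-kB targets and inhibitors, 17 were tested, 14 rose and 2 fell (Ltb and Tnfsf14), with a median of 2.32; without both shallow lung libraries 9 rose and none fell. Of the 14, 3 reached the filter through lung alone. The inhibitors of the pathway were among the clearest. Tnfaip3, which encodes the ubiquitin editor A20, had 2467, 1594 and 2110.2 normalized reads in lung, 53.0, 64.8 and 86.2 in spleen and 159, 149 and 122 in lymph node, 19.5 times the lymphoid mean (log2 difference 4.36 ± 0.22 SE, adjusted p = 3.35e-07). Nfkbiz, a nuclear IκB protein that promotes Il17a transcription, had 668, 547 and 645 in lung, 99.7, 103 and 86.9 in spleen and 66.8, 69.7 and 71.6 in lymph node. Nfkbiz differed by 2.90 ± 0.18 SE on the log2 scale (adjusted p = 1.06e-06). Nfkbid, another nuclear IκB protein, had 714, 307 and 547 in lung, 58.0, 55.0 and 30.2 in spleen and 35.2, 31.3 and 36.1 in lymph node. Nfkbid differed by 3.61 ± 0.30 SE on the log2 scale (adjusted p = 5.29e-06). Nfkbia, encoding IκBα, had 1773, 1149 and 1171 in lung, 360.5, 267 and 238 in spleen and 405, 222 and 221 in lymph node. Nfkbia differed by 2.26 ± 0.26 SE on the log2 scale (adjusted p = 4.16e-05). The 4 genes separated lung from both lymphoid tissues in every library. Rel, an NF-kB subunit, rose by 2.32 ± 0.25, and Map3k8, a kinase upstream of ERK, by 1.22 ± 0.23. Birc3, an inhibitor of apoptosis, had 146, 186 and 167 in lung, 115, 70.6 and 58.5 in spleen and 189, 45.4 and 71.6 in lymph node and overlapped (log2 difference 1.01 ± 0.38 SE, adjusted p = 0.0371); its call was lost without lung library 2 or 3, lymph node library 2 or 3 or spleen library 2 or 3, and in 5 further alternatives, limma voom among them. Zc3h12a, an RNase that limits cytokine mRNA, rose by 2.56 ± 0.36, and of 14 tested genes for ubiquitin editing and mRNA decay 8 rose and none fell.

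The promoter regions of Nfkbid and Nfkbia are shown because both are inhibitors of the pathway and Nfkbid passed the test between subsets below, while Nfkbia did not. They are RefSeq sequences (GRCm38.p6) of the same 300 bases around the start. Of the 3 such regions of Nfkbid, only the region printed held a searched motif, and it was picked for that. Nfkbid lies at chr7:30422156-30422455 on the plus strand, with capitals at a cAMP response element (TGACGTCA) 51 bases upstream, and Nfkbia at chr12:55492598-55492897 on the minus strand, with capitals at an NF-kB motif (GGGA, any base, then TTTCC, here on the opposite strand) 29 bases upstream.
Nfkbid: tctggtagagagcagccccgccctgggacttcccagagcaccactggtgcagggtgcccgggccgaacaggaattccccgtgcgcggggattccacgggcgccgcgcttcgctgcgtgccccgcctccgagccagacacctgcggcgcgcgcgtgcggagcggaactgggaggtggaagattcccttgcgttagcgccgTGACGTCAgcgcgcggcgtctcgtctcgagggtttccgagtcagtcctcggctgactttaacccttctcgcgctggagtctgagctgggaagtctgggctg
Nfkbia: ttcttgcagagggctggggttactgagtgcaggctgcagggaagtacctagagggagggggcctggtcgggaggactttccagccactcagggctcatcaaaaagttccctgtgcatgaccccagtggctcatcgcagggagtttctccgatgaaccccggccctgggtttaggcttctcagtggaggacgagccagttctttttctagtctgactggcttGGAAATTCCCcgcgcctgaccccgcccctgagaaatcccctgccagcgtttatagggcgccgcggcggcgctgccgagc
The NF-kB motif occurred in 0.411% of all regions. Counted by gene, with a match in any region, it occurred in 0.466% of all genes with a region and 0.844% of those tested. Of the 17 tested NF-kB genes, 13 had a region and 2 held the motif (Nfkbia and Ltb). Only this form of the motif was searched, so a region without capitals for it was not shown to lack NF-kB sites. Over the genes tested that had a region (1896 of 2578), the shares with each motif were set side by side and not tested. The AP-1 motif was in 10.2% of the higher genes, 7.33% of the lower and 7.18% of those not past the test, the cAMP response element in 3.59%, 3.01% and 3.30%, and the NF-kB motif in 0.898%, 1.13% and 0.575%. The immediate early list held the cAMP response element in 3 of the 26 genes with a region (Btg2, Dusp1 and Ppp1r15a) and the AP-1 motif in 1 (Csrnp1).

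γδ T cell receptor and CD3 genes were lower in lung: of 10 tested, 9 fell and none rose, with a median of -1.2. Tcrg-C2, a γ constant gene, had 219, 112 and 198 in lung, 468, 470.1 and 417 in spleen and 343, 513 and 592 in lymph node, without overlap. Tcrg-C2 differed by -1.44 ± 0.25 SE on the log2 scale (adjusted p = 8.83e-04). Trgv2, a γ variable gene, had 41.6 to 91.8 normalized reads in lung and 136 to 229.7 in the lymphoid libraries. Trgv2 differed by -1.54 ± 0.28 SE on the log2 scale (adjusted p = 0.00105). Tcrg-V4, another, had 28.8 to 116 normalized reads in lung and 139 to 239.7 in the lymphoid libraries. Tcrg-V4 differed by -1.59 ± 0.35 SE on the log2 scale (adjusted p = 0.00364). Both fell without overlap. γ constant and variable genes are near-identical in parts, so that reads may be split between copies. Cd3e and Cd3g overlapped between lung and spleen (log2 difference -0.85 ± 0.25 SE, adjusted p = 0.0141; -0.98 ± 0.23, adjusted p = 0.00482). Scaled to CD3 reads, which fixes the level of the CD3 genes themselves, 2 of the 10 fell and the median was -0.30, and without both shallow lung libraries 3 of 11 fell. The share of reads on other-cell lists was highest in lung, and its part in these decreases was not tested.

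Inhibitory receptors split. Ctla4, a brake on co-stimulation, had 154, 96.0 and 109 in lung, 4.95, 1.16 and 6.78 in spleen and 3.06, 0.783 and 1.24 in lymph node and no overlap (log2 difference 5.11 ± 0.57 SE, adjusted p = 3.65e-05); it was also on the αβ T cell list, as a gene of regulatory T cells. Cd160, a receptor of innate-like lymphocytes, had 26.6, 6.40 and 6.08 in lung, 266, 153 and 192 in spleen and 42.3, 16.4 and 26.8 in lymph node: lung and lymph node lay below spleen (log2 difference -2.72 ± 0.47 SE, adjusted p = 8.55e-04; lung minus lymph node -1.29 ± 0.54, adjusted p = 0.0593). Of 7 tested, 3 rose (Ctla4, Lilrb4a and Entpd1) and 3 fell (Cd160, Cd5 and Cd96). Ctla4 reached the filter through lung alone. Lilrb4a and Entpd1 are also genes of myeloid cells. The calls of Cd5 and Cd96 were lost in 11 and 12 of 23 alternatives, limma voom among them, and 2 rose and none fell without both shallow lung libraries. Among cytokine receptors, 14 were tested, 10 rose and Il27ra fell; without both shallow lung libraries 6 of 12 rose and none fell. Il4ra, a chain of the IL-4 and IL-13 receptors, had 369, 358 and 541 in lung, 107, 131 and 122 in spleen and 184, 134 and 133 in lymph node. Il4ra differed by 1.63 ± 0.21 SE on the log2 scale (adjusted p = 1.14e-04). Ifngr2, a chain of the interferon-γ receptor, had 243, 173 and 195 in lung, 75.6, 90.9 and 43.1 in spleen and 91.3, 76.7 and 97.1 in lymph node (log2 difference 1.38 ± 0.26 SE, adjusted p = 0.00128); both lay above all lymphoid libraries. Il17ra, a chain of the IL-17 receptor, had 425, 333 and 307 in lung, 311, 431 and 301 in spleen and 336, 409 and 507 in lymph node and did not pass. Il17ra differed by -0.10 ± 0.21 SE on the log2 scale (adjusted p = 0.684).

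**Figure D3:**
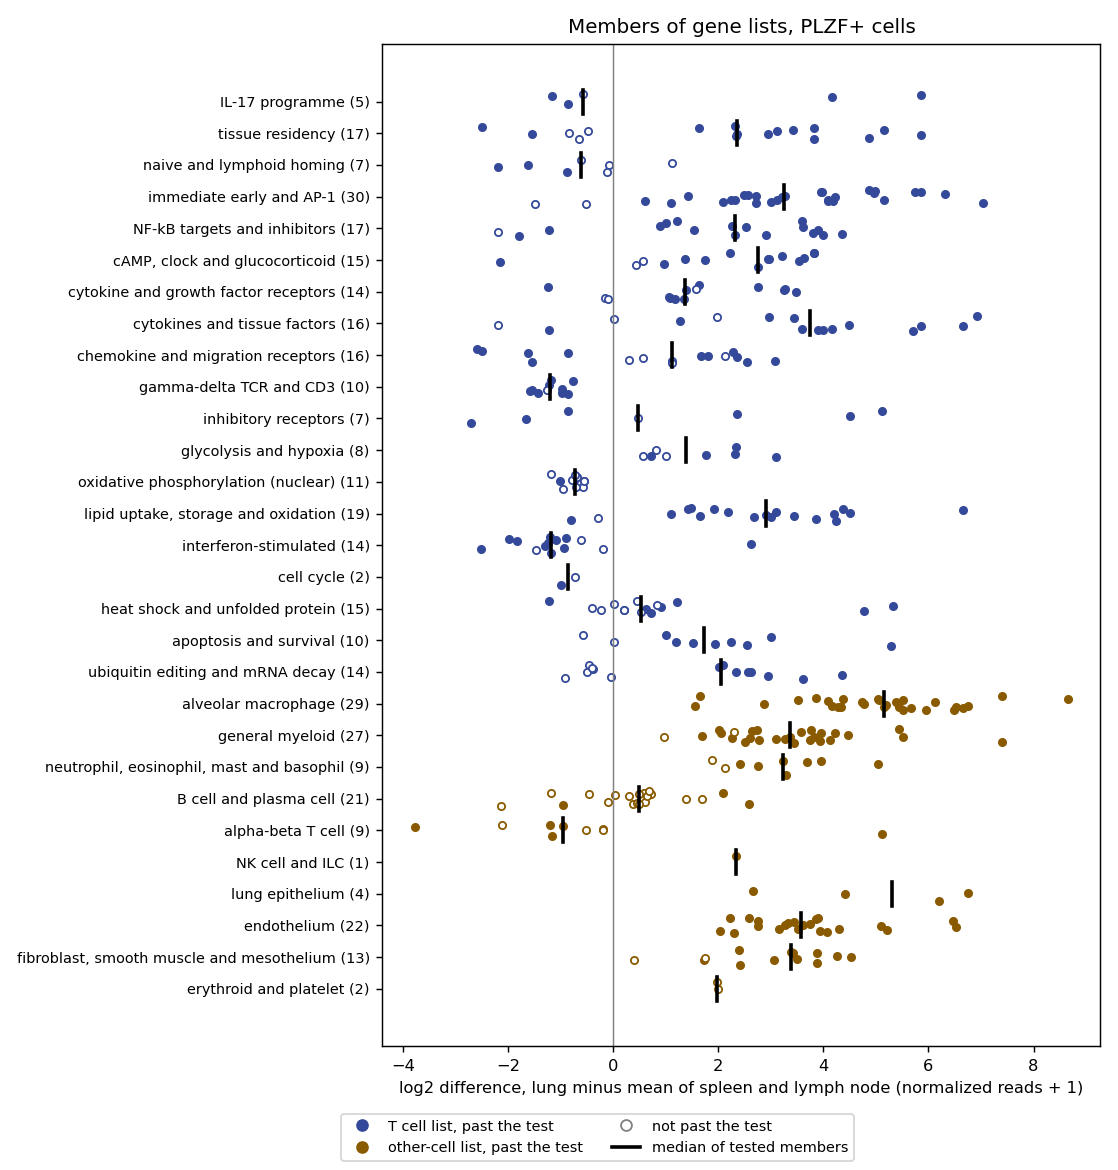
Log2 difference between lung and the mean of spleen and lymph node (x axis, normalized reads plus 1) for each tested member of the gene lists (rows, with the number tested); filled points passed the test, open points did not, and bars are medians. Immediate early genes lay to the right (28 of 30 higher), γδ T cell receptor and CD3 genes to the left (9 of 10 lower), and alveolar macrophage genes farthest to the right (29 of 29 higher).

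Lipid genes were higher in lung: of 19 tested, 17 rose and Scd2 fell, with a median of 2.91. Of the 17, 6 reached the filter through lung alone, Lpl among them, so that their direction was fixed by it. The call of Scd2 (log2 difference -0.79 ± 0.30, adjusted p = 0.0395) was lost in 12 of the 23 alternatives, CD3 scaling and limma voom among them, and without both shallow lung libraries 13 of the 19 genes rose. Of these 19, 4 (Abcg1, Fabp4, Lpl and Pparg) were also on an other-cell list, and without them 13 of 15 rose, with a median of 2.68. Dgat1, which makes triglycerides, had 606, 339 and 502 in lung, 29.0, 39.4 and 40.0 in spleen and 57.1, 37.6 and 56.0 in lymph node. Dgat1 differed by 3.45 ± 0.26 SE on the log2 scale (adjusted p = 2.58e-06). Hilpda, an inhibitor of lipolysis induced by hypoxia, had 208, 173 and 139.9 in lung, 21.2, 22.6 and 14.2 in spleen and 21.9, 25.1 and 29.9 in lymph node. Hilpda differed by 2.91 ± 0.29 SE on the log2 scale (adjusted p = 1.66e-05). Plin2, a lipid droplet coat protein, had 725, 403 and 234 in lung, 61.5, 33.6 and 34.5 in spleen and 71.9, 65.8 and 48.6 in lymph node. Plin2 differed by 3.0 ± 0.34 SE on the log2 scale (adjusted p = 4.16e-05). The lung libraries lay above all lymphoid ones in these 3 genes. Lpl, lipoprotein lipase and a main gene of alveolar macrophages, had 839, 656 and 441 in lung, 10.6, 9.84 and 7.39 in spleen and 6.63, 3.13 and 0.622 in lymph node. The part of macrophage RNA in the lipid genes was not tested. Of 8 tested genes of glycolysis and hypoxia 5 rose (2 without both shallow lung libraries), among them Hk2, which encodes hexokinase 2, with 102, 54.4 and 69.9 in lung, 9.90, 14.5 and 15.4 in spleen and 16.8, 14.1 and 12.4 in lymph node. Hk2 differed by 2.33 ± 0.37 SE on the log2 scale (adjusted p = 4.44e-04). Of 11 tested nuclear genes of oxidative phosphorylation 2 fell, Ndufa4 and Ndufs3, with a median of -0.73 that was 0.17 when scaled to CD3 reads. All 11 fell after quantile scaling, and none passed with limma voom, with CD3 scaling or without both shallow lung libraries.

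Interferon-stimulated genes were lower in lung, with 10 of 14 tested lower and 1 higher and a median of -1.19. Ifi47, an immunity-related GTPase, had 178, 160.0 and 91.2 in lung, 419.9, 365 and 303 in spleen and 329, 263 and 367 in lymph node. Ifi47 differed by -1.29 ± 0.24 SE on the log2 scale (adjusted p = 0.00128). Gbp4, a guanylate-binding protein, had 121, 28.8 and 73.0 in lung, 159.7, 144 and 201 in spleen and 338, 233 and 383 in lymph node. Gbp4 differed by -1.82 ± 0.37 SE on the log2 scale (adjusted p = 0.002). Irgm1, another of these GTPases, had 89.98, 99.2 and 57.8 in lung, 182, 190.5 and 129 in spleen and 216, 161 and 261 in lymph node. Irgm1 differed by -1.2 ± 0.25 SE on the log2 scale (adjusted p = 0.00248). Lung lay below all lymphoid libraries in these 3. The gene that rose was Socs3, which encodes a feedback inhibitor of STAT3 signalling as well, with 233, 205 and 271 in lung, 70.0, 52.1 and 45.6 in spleen and 24.5, 21.9 and 29.9 in lymph node. Socs3 differed by 2.62 ± 0.24 SE on the log2 scale (adjusted p = 1.00e-05). Scaled to CD3 reads, 1 of the 14 fell (median -0.29), and without both shallow lung libraries 4 fell, Gbp4 not among them. Of 15 tested genes of heat shock and unfolded protein response 6 rose and Ahsa1 fell, beside 34.4% higher calls over all genes tested. Largest were Hspa1b (log2 difference 5.33 ± 0.80 SE, adjusted p = 3.11e-04) and Hspa1a (log2 difference 4.78 ± 0.79 SE, adjusted p = 5.77e-04), near-identical genes of inducible HSP70 whose reads may be split. Both had lymphoid means under 10 normalized reads and reached the filter through lung alone. Scaled to CD3 reads 12 of the 15 rose and none fell, beside 1240 higher and 67 lower of all 2578 genes tested. The call of Ahsa1 was lost there (-0.33, adjusted p = 0.345), with limma voom and without both shallow lung libraries. Of 10 tested genes of apoptosis and survival 8 rose; Cdkn1a, the cell cycle inhibitor p21, had 893, 486 and 349.7 in lung, 23.3, 4.05 and 6.16 in spleen and 90.8, 5.48 and 11.2 in lymph node. Cdkn1a differed by 5.29 ± 0.74 SE on the log2 scale (adjusted p = 2.01e-04). Mcl1, a survival factor, had 338, 400.1 and 368 in lung, 154, 171 and 123 in spleen and 182, 148 and 190.5 in lymph node. Mcl1 differed by 1.2 ± 0.19 SE on the log2 scale (adjusted p = 4.59e-04). Of 2 tested cell cycle genes Mcm7 fell (log2 difference -1.0 ± 0.35 SE, adjusted p = 0.0273), a call lost in 8 of 23 alternatives, among them limma voom, CD3 scaling (-0.11, adjusted p = 0.831), lung library 2 left out and both shallow lung libraries left out. Rrm1 did not pass (log2 difference -0.73 ± 0.33 SE, adjusted p = 0.0644; 0.16 when scaled to CD3 reads).

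Genes of other cell types gave the largest differences. All 29 tested alveolar macrophage genes rose, with a median of 5.15, and 19 of them reached the filter through lung alone, so that their direction was fixed by it. Chil3, a chitinase-like protein of these cells, had 3091, 2919 and 1691 in lung, 19.8, 15.6 and 3.70 in spleen and 5.61, 0.783 and 1.87 in lymph node. Chil3 differed by 8.65 ± 0.52 SE on the log2 scale (adjusted p = 1.06e-06). Of 27 general myeloid genes 25 rose; Cd14, a co-receptor for lipopolysaccharide, had 509, 544 and 532 in lung, 11.3, 15.6 and 3.70 in spleen and 0, 0 and 0 in lymph node. All 22 tested endothelial genes rose, 19 of them through lung alone at the filter, with Cldn5, a tight junction gene, at 20.05, 525 and 116 in lung, 0, 1.16 and 0 in spleen and 0, 0 and 0.622 in lymph node, so that lung library 2 stood highest. All 4 tested lung epithelium genes rose (1 with limma voom), each through lung alone at the filter; Krt19, a keratin, had 148, 86.4 and 122 in lung, 0, 0 and 0 in spleen and 0, 0 and 0.622 in lymph node. Krt19 is also on the alveolar macrophage list, and the other tested epithelium genes did not share its even levels across lung libraries. Sftpc, Sftpa1 and Slc34a2 rested on lung libraries 2 and 3. Relative to CD3 reads, Sftpa1 and Slc34a2 in lung library 1 lay within the range of the lymphoid libraries. The call of Sftpc (log2 difference 6.21 ± 1.47 SE, adjusted p = 0.00497) was lost with limma voom. Of 13 tested fibroblast genes 11 rose (7 with limma voom), and 8 of the 11 reached the filter through lung alone. Granulocyte genes gave 7 of 9 higher, with S100a9 at 31.2, 1111 and 572 in lung, 130.1, 529.7 and 257 in spleen and 0, 0 and 0.622 in lymph node, where lung library 1 lay below all spleen libraries; 3 rose with limma voom and, without both shallow lung libraries, 1 of 8. Of 21 tested B cell genes 2 rose and Cd79b fell; without both shallow lung libraries 1 rose and 6 fell. Among αβ T cell genes, the β constant gene Trbc1 had 452, 234 and 307 in lung, 676, 685 and 568 in spleen and 617, 559 and 616 in lymph node. Trbc2, the other one, had 563, 256 and 298 in lung, 922, 894 and 669.6 in spleen and 755, 679 and 804 in lymph node. Of 9 tested, 4 fell while Ctla4 rose (2 fell without both shallow lung libraries). Rnf128, the tested gene of the NK cell and ILC list, rose by 2.35 ± 0.53; with any lung library left out its mean was under the filter and it was not tested. The 2 tested erythroid genes did not pass, and Hba-a1 had 0.932, 73.6 and 125 in lung, 44.5, 48.6 and 34.5 in spleen and 0, 0 and 0 in lymph node.

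By the rule of size, the 12 largest increases without overlap outside the other-cell lists were Fos, Cxcl2, Il1b, Chil4, Thbs1, Atf3, Plaur, Ptgs2, Nr4a1, Il17a, F7 and Fosb, from 7.04 to 5.74. Several had lymphoid means under 10 normalized reads, Cxcl2, Chil4, Thbs1, Ptgs2, Il17a and F7 among them. These reached the filter through lung alone, so their direction was fixed by it and their rank is a description. Chil4, F7 and Thbs1 are known as macrophage or platelet products and were at or near 0 in lymph node: Chil4 had 585, 538 and 334 in lung, 7.07, 4.63 and 14.8 in spleen and 1.02, 3.13 and 3.11 in lymph node. Of the 12 largest decreases, the 11 reported here were Pydc3, Mitd1, Lpar5, Mypopos, Fam109b, Armc7, Traf3ip2, Cd6, Ccr10, Mfsd10 and Cd7, from -3.91 to -2.20. The first 7 were listed with 0 reads in lung library 2, where 3 reads would be 9.60 normalized reads. Pydc3, a pyrin domain gene of the interferon response, had 29.8, 0 and 6.08 in lung, 97.5, 83.9 and 70.2 in spleen and 91.8, 87.7 and 110.2 in lymph node. Pydc3 differed by -3.91 ± 0.77 SE on the log2 scale (adjusted p = 0.00178). Lpar5, a lysophosphatidic acid receptor that restrains T cell receptor signals, had 24.2, 0 and 9.12 in lung, 54.4, 55.0 and 45.0 in spleen and 56.6, 57.2 and 68.5 in lymph node. Lpar5 differed by -3.16 ± 0.76 SE on the log2 scale (adjusted p = 0.00546). Traf3ip2, which encodes Act1, the adaptor of the IL-17 receptor, had 71.3, 0 and 57.8 in lung, 127, 148 and 96.7 in spleen and 116, 93.9 and 128 in lymph node, and its call (log2 difference -2.86 ± 1.03 SE, adjusted p = 0.0313) was lost with limma voom, with CD3 scaling (-2.30, adjusted p = 0.107), on the deposited log2 values and when spleen library 1 or 2, lymph node library 3 or both shallow lung libraries were left out. The calls of Fam109b and Armc7 were also lost with limma voom and without both shallow lung libraries, and that of Armc7 with CD3 scaling. Mypopos is an antisense gene, and whether counting used strand is not given in the sources used here.

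The lung difference was then tested between PLZF+ and PLZF- cells in 18 libraries. PLZF- lung libraries 2 and 3 were shallower still, with 63107 and 56908 reads over the genes of the table. There 1 read was worth 5.89 and 5.65 normalized reads. In PLZF- cells 1833 of 2594 genes passed between lung and the lymphoid tissues (70.7%; 32.2% higher and 38.4% lower). The size of that difference itself differed between subsets in 2 genes (0.0771%); 273 did so at an unadjusted p under 0.05. Nfkbid passed: PLZF- lung had 168, 159 and 113 normalized reads, PLZF- spleen 98.6, 69.3 and 77.8 and PLZF- lymph node 49.1, 50.9 and 62.1, so that lung rose by 1.12 in PLZF- cells and 3.61 in PLZF+ cells (difference 2.49 ± 0.41 on the log2 scale, adjusted p = 0.0243). The lung libraries of the subsets did not overlap. This call was lost with CD3 scaling (1.39, adjusted p = 0.0528) and when 1 of 8 single libraries was left out, with 2.22 to 2.51 and adjusted p of 0.0559 to 0.116; those were PLZF+ lung libraries 1 and 3, PLZF+ lymph node libraries 2 and 3, PLZF- lung library 3, PLZF- lymph node library 2 and PLZF- spleen libraries 1 and 3. Commd5, a gene of the COMMD family that was named after its values were seen, also passed (4.16 ± 0.73 on the log2 scale, adjusted p = 0.0275). It had 12.1, 28.8 and 24.3 in lung, 31.8, 23.2 and 24.6 in spleen and 27.5, 21.9 and 31.7 in lymph node in PLZF+ cells, and 3.10, 0 and 0 in PLZF- lung against 46.6, 26.3 and 45.7 in PLZF- spleen and 44.4, 32.8 and 24.7 in PLZF- lymph node. PLZF- lung libraries 2 and 3 had no read of it, where 3 reads would be 17.7 and 17.0 normalized reads, and with limma voom its adjusted p was 0.525. It kept the call only when the library left out was 1 of 6 (PLZF- lung 1 or 2, PLZF- lymph node 3, PLZF- spleen 2, PLZF+ lung 1 or PLZF+ lymph node 1); without any other of the 18 its adjusted p was 0.0594 to 0.116. Without PLZF- lung library 1, 243 genes passed.

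Nfkbia, Nfkbiz and Egr2 of the NF-kB and immediate early lists had larger lung differences in PLZF+ cells without passing. The median of this difference over all 2594 genes was 0.27 on the log2 scale. CD3 scaling lowered that of Nfkbid from 2.49 to 1.39, and values of the genes below on that scale are not given here. Nfkbia gave 1.90 ± 0.41 on the log2 scale, adjusted p = 0.0884, with 539, 577 and 452 in PLZF- lung, 456, 331 and 539 in PLZF- spleen and 623, 268 and 317 in PLZF- lymph node. Nfkbiz gave 1.21 ± 0.25 on the log2 scale, adjusted p = 0.0884 and Egr2 3.46 ± 0.74 on the log2 scale, adjusted p = 0.0884. For Il17a, PLZF- lung had 11.2, 5.89 and 22.6 normalized reads, below all PLZF+ lung libraries. The values of PLZF- lung libraries 2 and 3 rest on few reads, as 1 read was worth 5.89 and 5.65 there. The difference between subsets was 3.21 ± 1.16 on the log2 scale for Il17a, adjusted p = 0.349. For Il17f it was 3.66 ± 1.41 on the log2 scale, adjusted p = 0.364. Tnfaip3, at 2119, 1154 and 1097 in PLZF- lung, gave 0.34 ± 0.39 on the log2 scale, adjusted p = 0.802, and Areg 1.15 ± 0.91 on the log2 scale, adjusted p = 0.672. A p that misses the threshold here does not show that the subsets were alike, since the standard errors for the low genes were near 1.

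**Figure D4:**
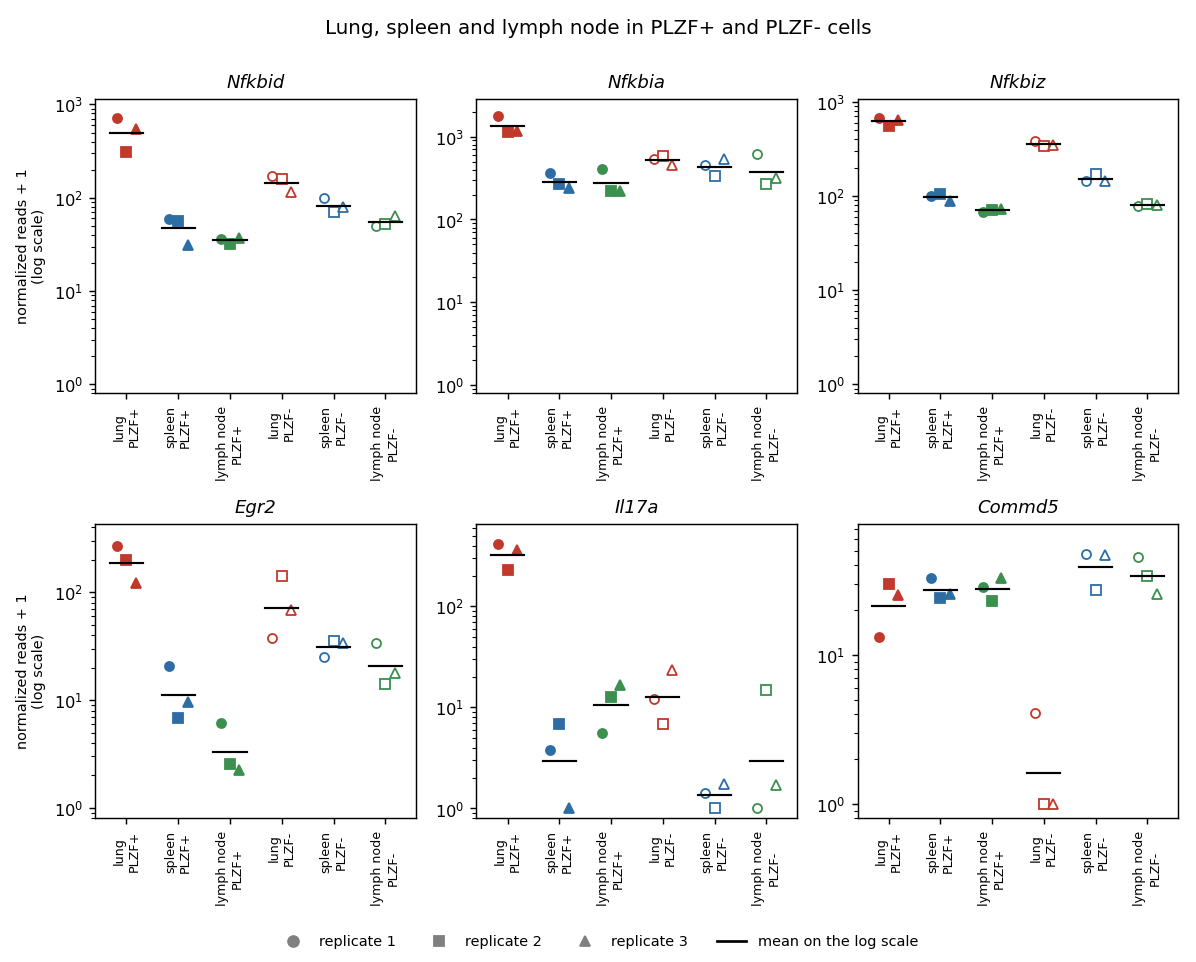
Normalized reads plus 1 (log scale, y axis) of 6 genes in lung, spleen and lymph node of PLZF+ (filled) and PLZF- (open) cells; points are libraries, shapes the replicate number and bars the mean on the log scale. Nfkbid in lung was at least 307 normalized reads in PLZF+ and at most 168 in PLZF- libraries, and Commd5 was at 0 in 2 PLZF- lung libraries.

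The median of 7 lists changed sign between 4 scalings and limma voom. The medians of the γδ T cell receptor, interferon-stimulated and αβ T cell lists stayed below 0 under all 5 of these, while those of the IL-17, naive and lymphoid homing, oxidative phosphorylation and cell cycle lists were below 0 under 4 of them and above 0 when scaled to CD3 reads. The median of inhibitory receptors fell below 0 after quantile scaling (-0.50), that of B cell genes after quantile scaling and with limma voom (-0.15 and -0.79), and that of erythroid genes with limma voom (-0.16). Medians of immediate early genes (2.88 to 4.10) and NF-kB targets (2.07 to 3.22) were above 0 under all 5. Among decreases named above, those of Ccr6, Itgae, 5830411N06Rik, Cd3d, Cd3e, Cd3g, Cd247, Tcrg-V4, Trbc1, Trbc2, Ifi47, Irgm1, Il27ra, Tnfsf14 and Cd79b also did not pass when scaled to CD3 reads. Without both shallow lung libraries Cd160, Trgv2, Cd3d, Cd3e, Cd3g, Cd247, Trbc1, Trbc2, Il27ra, Tnfsf14, Entpd1 and S100a9 did not pass. In the fit on all 24 libraries Ccr6, 5830411N06Rik, Tcf7, Tcrg-V4, Trbc1, Cd3e, Cd247, Tnfsf14 and Cd79b did not.

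**Figure D5:**
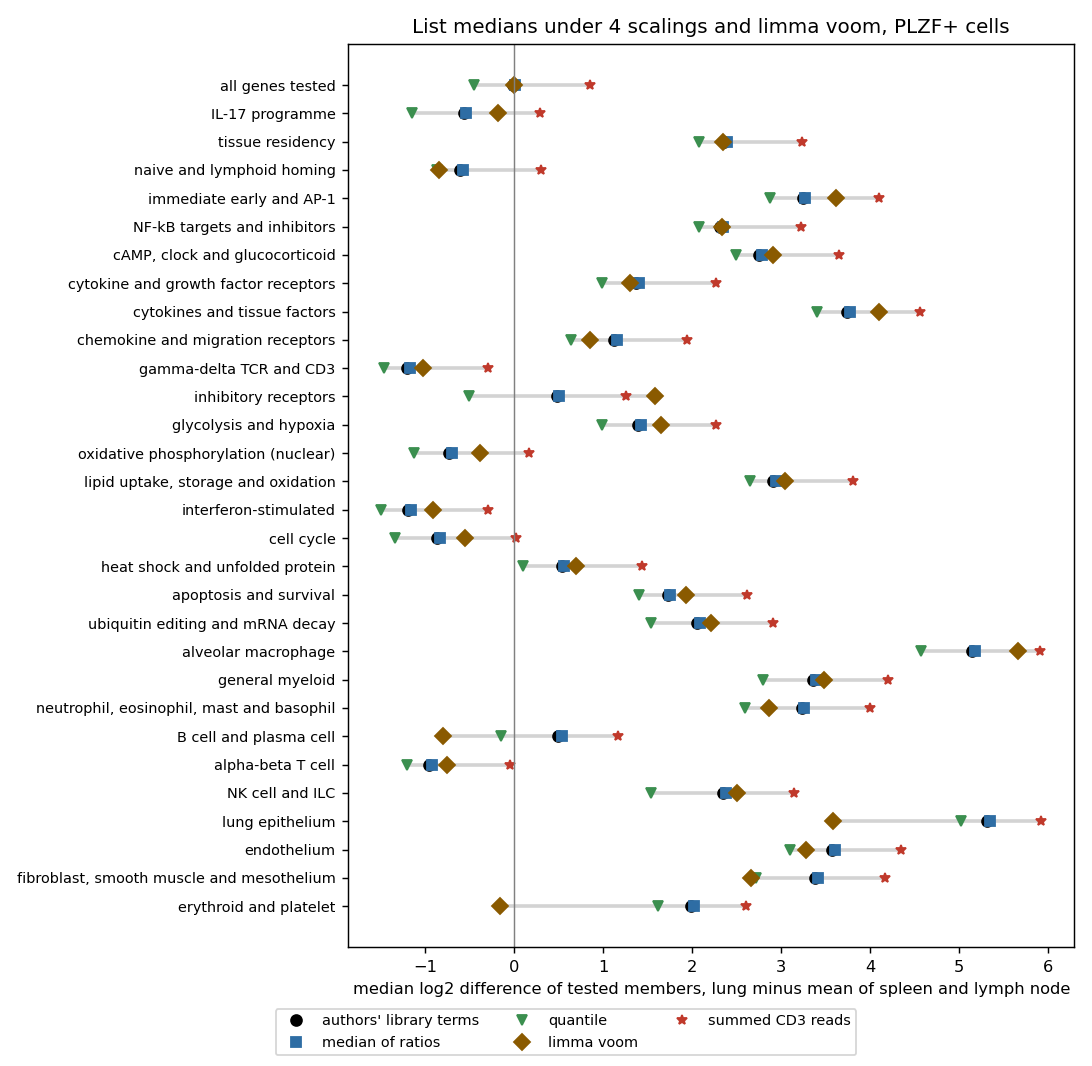
Median log2 difference of each list between lung and the mean of spleen and lymph node (x axis) under 4 scalings of the libraries and with limma voom (symbols). The median of all genes moved from -0.45 with quantile scaling to 0.85 with scaling to CD3 reads.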

How the data were processed

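γδ T cells sorted as PLZF+ or PLZF- from 4 tissues gave 24 Smart-seq2 libraries, 3 in each of 8 groups taken from the titles; the 9 PLZF+ libraries of lung, spleen and lymph node were compared. Per the submitters' processing notes, the tools were Cufflinks 1.2, HISAT 0.1.6 and SAMtools 1.2, and the build was mm10. The authors deposited log2 values with TMM factors, and a p-value and q-value per gene for tissue with q under 0.05, per the file headers. Each deposited value was log2(reads + 0.5) shifted by a library term and a gene term. This gave back whole reads for 99.987% of the genes that were not merged entries (tolerance 0.02 read, refitted within 9e-05). No 2 replicates among the 9 libraries were copies: their chi-square per gene was 3.93 to 29.1, above sampling noise.

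Reads were divided by relative depth (geometric mean 1 over 24 libraries) and tested as log2 of normalized reads plus 1 with limma 3.58.1 (R 4.3.3; lmFit, contrasts, eBayes with trend, no block), requiring a mean of 10 or more, two-sided, with Benjamini-Hochberg adjusted p under 0.05. The difference between subsets came from 18 libraries (2594 genes). The procedure was tested on simulated data. A fold change on this scale understates that of low genes. The log2 values were the fallback planned; reads were used because they could be recovered, and a gene that passes the filter through lung alone had to differ.

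Named genes were the 12 largest changes each way without overlap and with a mean of at least 50 on the higher side, outside unnamed models and other-cell lists, the 4 members of each of 30 lists with the smallest adjusted p, and Il17a, Il17f, Ccr6 and Areg; other list members were added where a count is explained. Genes that these rules name and the text leaves out are not reported here. The IFN-γ and cytotoxic list had 0 of 23 genes in the table. Members and lists were chosen with earlier results of these data known. Alternatives were 2 pseudocounts, 3 filters, 2 scalings, limma voom, the deposited log2 values, array weights, a fit on all libraries, a replicate block and each library left out; scaling to CD3 reads and leaving out both shallow lung libraries were chosen after seeing the data. Promoter sequences came from RefSeq (GRCm38.p6). Python 3.11.15, numpy 2.4.6, pandas 2.3.3 and matplotlib 3.10.9 were used.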

Additional observations from a re-analysis of the deposited data

Results flagged for a closer look

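For 2 genes the lung difference itself differed between PLZF+ and PLZF- cells by a test of that difference. Nfkbid rose by 2.49 more in PLZF+ cells on the log2 scale, with every PLZF+ lung library above every PLZF- lung library (adjusted p = 0.0243). The call of Nfkbid was lost with CD3 scaling (1.39, adjusted p = 0.0528) and without any of the single libraries listed above for it. Commd5 differed by 4.16 (adjusted p = 0.0275): it had no read in PLZF- lung libraries 2 and 3, and its levels in PLZF+ lung overlapped with those of the lymphoid tissues. With limma voom its adjusted p was 0.525, and most single libraries left out also removed the call.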

How the results depend on the processing

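The count of genes past the test for lung against lymphoid tissues (1601) was 1048 in the fit on all 24 libraries, 634 without both shallow lung libraries and 1130 to 1713 without single libraries. Against spleen alone (914) it was 1509 with quantile scaling, 428 on all 24 libraries, 398 without both shallow lung libraries and 471 to 1212 without single libraries, the lowest being 538 without spleen library 1 and 471 without spleen library 2. Against lymph node alone (1475) it was 967, 751 and 1052 to 1673 in the same order. The difference between subsets (2 genes) gave 11 with CD3 scaling (1 higher and 10 lower), 2 with limma voom, with median-of-ratios and with quantile scaling, and 0 to 243 without single libraries, with 243 without PLZF- lung library 1, 5 without PLZF+ lymph node library 1 and 4 without PLZF- lung library 2. The replicate block gave 4 there, as below, and all other alternatives kept these counts within 1.5 times.

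Same-numbered libraries of different tissues had correlated deviations of -0.0874 to 0.266, and different-numbered ones -0.186 to 0.189. The highest were those of spleen library 1 with lymph node library 1 (0.266) and with lung library 1 (0.206). The numbers were not taken as pairs in the main fit, which these values do not settle. The replicate block gave 1635, 1018 and 1508 genes for the 3 comparisons and 4 for the difference between subsets. Among named genes, CD3 scaling reversed Ccr6 (0.038), Tcf7 (0.017), Rasgrp2 (0.30), Ndufs3 (0.16), Ndufa10 (0.21) and Rrm1 (0.16), as that scaling raises all genes by the lower share of CD3 reads in lung. Limma voom and leaving out both shallow lung libraries reversed Hba-a1 (-0.16 and -1.76) and Hba-a2 (-0.17 and -1.74), which had 1 or fewer normalized reads in lung library 1. Depth limits the decreases most: the first 7 of the 11 reported rest in part on 0 reads in lung library 2. With 1 read worth 3.20 normalized reads there, low genes were not detectable.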

Other observations

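PLZF+ libraries of epididymal adipose tissue, a further non-lymphoid tissue, entered none of the comparisons, and their values are given untested. Il17a had 142, 55.2 and 25.2 normalized reads in the 3 adipose libraries, beside 409, 230.4 and 362 in lung and at most 15.6 in the lymphoid libraries. Areg had 31.5, 13.4 and 10.1 there, and Ccr6 21.0, 20.9 and 10.1. Tnfaip3, the A20 gene, had 1372, 1063 and 717, and Nr4a1 902, 1358 and 2505, beside lymphoid maxima of 159 and 177. Nfkbid had 208, 142 and 174 and Ctla4 137, 79.1 and 40.4. Genes of the alveolar macrophage list took 1.88% to 3.35% of reads in PLZF+ adipose libraries, above all PLZF+ lymphoid libraries (at most 1.25%). Those of the general myeloid list took 1.1% to 4.98%. The alveolar macrophage list is thus not specific to lung, and its share is not a measure of alveolar macrophage RNA alone.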
